A study of Mus musculus with 8 samples.

Results

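The genes described here encode scaffold and ankle link proteins of the hair bundle and the membrane protein clarin-1. They have been linked to Usher syndrome, an inherited loss of hearing and sight. They were chosen by gene symbol, with earlier results of these data known. The 6 members, Ush1c, Ush1g, Adgrv1, Whrn, Clrn1 and Pdzd7, were all found among the 25343 genes of the deposited table, and all 6 passed the minimum count for testing. RNA was measured in cochlear hair cells of mice, 4 wild-type libraries and 4 libraries of Ndp knockout mice. Ndp encodes norrin, the secreted protein lost in Norrie disease. All mice were of a mixed C57BL/6 and 129 background and 4 to 6 days old after birth. In both genotypes cells were sorted by an Atoh1-GFP reporter from pools of 12 to 20 sensory epithelia, so each library is a pool. The labels do not give the Ndp allele, the sex of the mice, the construct behind the reporter or the relation of pools to litters. The p-values below therefore speak of the variation among these libraries, part of which may be technical.

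Stereocilia, the actin-filled projections of hair cells, are joined to each other by several sets of extracellular links. Tip links, made of Cdh23 and Pcdh15, gate the mechanotransduction channel, and at their upper end harmonin (Ush1c) and SANS (Ush1g) form a scaffold with the motor myosin VIIa (Myo7a). Ankle links connect the stereocilia near their base while the bundle matures. They contain the very large adhesion receptor ADGRV1 (Adgrv1), which is anchored by the PDZ domain scaffolds whirlin (Whrn) and PDZD7 (Pdzd7). Clarin-1 (Clrn1) is a small membrane protein of the bundle and the synapse of hair cells.

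Binding to PDZ scaffolds is encoded at the very end of the coding sequence, so the ends of 2 members, a receptor and a scaffold protein, are shown. The last 8 codons before the stop codon are printed 5′ to 3′ in the sense of the gene, from the longest complete coding transcript of GENCODE release M21 (mm10), with the last 4 codons in capitals.
Adgrv1 (chr13:81095386-81095409, minus strand): ataccaattgctGACACCCACCTC
Ush1g (chromosome 11, minus strand, 115317985 to 115318007 and 115316930 across an exon junction): ctggccctggagGACACGGAGCTA
The last 12 coding bases of Adgrv1 and Ush1g were identical at 8 of 12 positions, and over all 24 printed bases 12 positions were identical. A coding end with serine or threonine at the third codon from the end and valine, isoleucine or leucine at the last, the usual form of a PDZ-binding end, was found in 2 of the 6 members (Ush1g and Adgrv1). It was also found in 2 of 4 other genes of the Usher protein network (Cdh23 and Pcdh15), and in 5.06% of 16842 genes of the table with a complete coding end. A match describes the sequence and is no measurement of binding. The 2 members printed are those with this form, so part of their identity follows from the choice. No other pair was compared.

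Whole reads recovered from the deposited values numbered 35077950 to 48329827 per library, and 3 reads in a library, the floor used here, were worth 2.34 to 3.49 normalized counts. Ndp reached 90.4 to 206 normalized counts in wild-type libraries and 10.5 to 66.8 in knockout libraries, so the genotypes did not overlap. Its log2 difference of -2.20 ± 0.56 (SE) did not pass either, with a limma adjusted p of 0.895 and a DESeq2 adjusted p of 0.129, so missing the threshold says little about a gene's change in these libraries. All 16 hair cell markers examined were present, with a summed level of 388135 to 477728 normalized counts in wild type and 438903 to 467201 in the knockout, and the myosin gene Myo6 was the most abundant. The 15 supporting cell markers summed to 284211 to 519069 and 337713 to 471827, so the sorted cells also carried abundant supporting cell RNA, most of all Tectb. Of these 15, 9 had a negative log2 difference and 6 a positive one, with a median of -0.18. Of the 16 hair cell markers 10 had a positive one and 6 a negative one, with a median of 0.06. Macrophage markers (10 genes, led by C1qb) summed to 2097 to 4852 and 3668 to 5811, with a positive log2 difference for 9 of 10 and a median of 1.65. Mesenchyme and fibrocyte markers (9 genes, led by Lum) summed to 16866 to 23677 and 19322 to 32792, with 7 of 9 positive and a median of 0.66, although the mean of Lum was lower in the knockout (8500.5 against 10017). Endothelial markers (6 of 8 symbols found, led by Emcn) were low, with sums of 88.5 to 143 and 162 to 307. These sums did not overlap between the genotypes, and the median log2 difference was 1.13 over the 5 tested. The part of these markers in the results below was not tested. Glia markers (6 genes, led by Sox10) summed to 3877 to 6888 and 2903 to 11446, and neuron markers (8 genes) to 61263 to 69722 and 60382 to 65253, most of it Gata3, which hair cells also express. No marker was at 0 in every library. In such pooled cells fewer cells of a type and less RNA per cell cannot be told apart.

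The comparison asked whether loss of Ndp came with another RNA level of these genes in the hair cells. None of the 6 members passed limma at an adjusted p of 0.05, and the genotypes overlapped for each of them. Of all 18203 genes tested, 0.00549% passed, and 3.04% had no overlap of wild-type and knockout libraries. The log2 difference, knockout minus wild type, was positive for 5 members and negative for Whrn, against 52.5% positive among all genes tested. Its median was 0.14 over the members and 0.02 over all genes. At an unadjusted p under 0.05 limma listed 0 members, where 5.57% of all genes did so. edgeR and DESeq2 on the recovered reads also called 0 members and listed 0 at an unadjusted p under 0.05. Over all genes edgeR called 0 and listed 828 of 18203, and DESeq2 called 34 and listed 1526 of 25078. The authors' deposited table gives an adjusted p of 1.00 for each member.

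**Figure D1:**
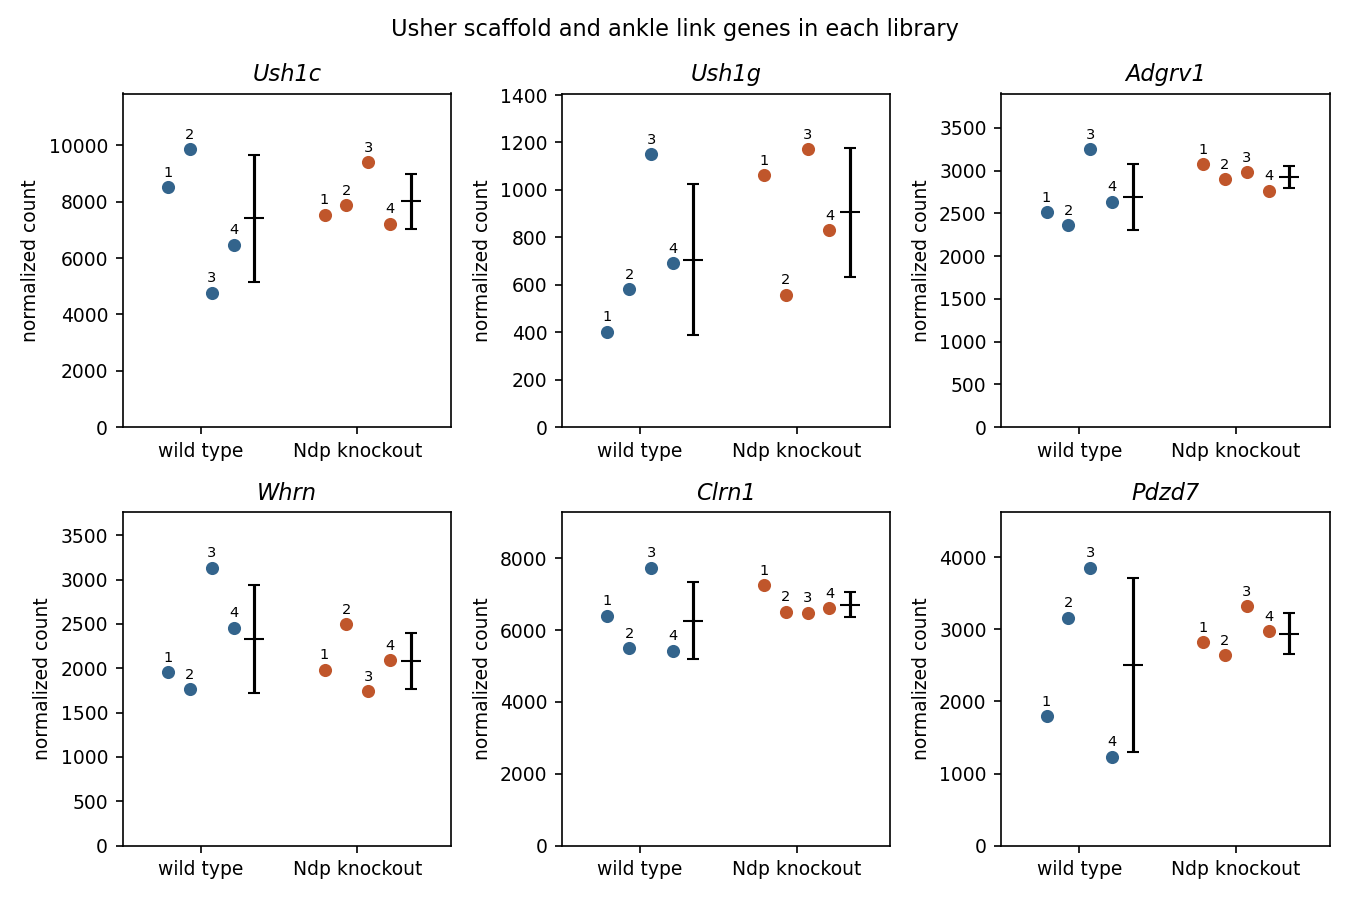
Normalized counts (vertical axes, each from 0) of the 6 members in the wild-type and Ndp knockout libraries. Points are libraries with their replicate number, and bars are the mean ± SD of 4 libraries. The genotypes overlap in every panel, and the knockout points lie closer together than the wild-type points.

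Ush1c and Ush1g, the scaffold genes of the upper tip link end, varied in different directions among the wild-type libraries. Ush1c (ENSMUSG00000030838, chromosome 7, 46195350 to 46238503, minus strand, mm10) encodes harmonin, which holds Cdh23 and the actin core together. Its wild-type libraries 1 to 4 gave 8526, 9871, 4770.0 and 6482 normalized counts, and its knockout libraries 1 to 4 held 7546, 7872, 9402 and 7229. The knockout values lay inside the wild-type range, and wild-type replicate 3 was the lowest of all. The means were 7412 ± 2246 and 8012 ± 963 (SD, n = 4 each). The log2 difference was 0.16 ± 0.21 (SE), with a 95% interval of -0.31 to 0.63 and a limma adjusted p of 0.979. Without wild-type replicate 3 it was -0.04. On the opposite strand the gene model Gm9860 shares 120 exonic bases, 3.12% of the exons of Ush1c. The library kit does not mark the strand, so reads there cannot be assigned by strand. The wild-type mean of Gm9860 was 527 ± 93.0 normalized counts and its knockout mean 319.6 ± 82.5 (SD, n = 4 each).

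Ush1g (ENSMUSG00000045288, chromosome 11, 115315192 to 115322041, minus strand) encodes SANS, the ankyrin repeat protein that links harmonin to the motor. It was the least abundant member in normalized counts. It had 402, 582, 1151 and 691 normalized counts in wild-type libraries 1 to 4, while knockout libraries 1 to 4 held 1063, 558, 1172 and 830.4. The genotypes overlapped across most of their ranges, with wild-type replicate 3 and knockout replicate 3 near the same high value. The means were 707 ± 319 and 906 ± 272 (SD, n = 4 each). Their log2 difference was 0.41 ± 0.33 (SE), and its 95% interval of -0.32 to 1.14 spans 0.800-fold to 2.20-fold. The limma adjusted p was 0.942. Without wild-type replicate 1 the difference was 0.17, and without wild-type replicate 3 it was 0.68, with an unadjusted p of 0.0462 and an adjusted p of 0.724 in limma. Without knockout replicate 2 it was 0.62, and without knockout replicate 3 it was 0.27.

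Among the ankle link genes Adgrv1 varied least between the libraries of a genotype. Adgrv1 (ENSMUSG00000069170, chromosome 13, 81095068 to 81633154, minus strand) encodes the ankle link receptor. It had 2515, 2365, 3252 and 2639 normalized counts in wild-type libraries 1 to 4 and 3072, 2898, 2980.1 and 2764 in knockout libraries 1 to 4. Each knockout library lay above wild-type libraries 1, 2 and 4 and below wild-type replicate 3. The means were 2693 ± 389 and 2929 ± 131 (SD, n = 4 each). The log2 difference was 0.13 ± 0.14 (SE), the limma adjusted p was 0.963, and the 95% interval of -0.17 to 0.43 covers 0.887-fold to 1.35-fold. It was 0.07 without wild-type replicate 2 and 0.22 without wild-type replicate 3.

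Whrn (ENSMUSG00000039137, chromosome 4, 63414910 to 63495991, minus strand) encodes whirlin, a scaffold of the ankle links and of the stereocilia tips. Its wild-type libraries 1 to 4 gave 1952, 1766, 3134 and 2458 normalized counts and its knockout libraries 1 to 4 held 1983, 2495, 1741 and 2093. The highest value was again that of wild-type replicate 3, and the other libraries of the genotypes were mixed. The means were 2328 ± 612 and 2078 ± 314 (SD, n = 4 each). Their log2 difference was -0.14 ± 0.20 (SE), with a 95% interval of -0.58 to 0.30 and a limma adjusted p of 0.980. Without wild-type replicate 3 the difference was 0.02, so its sign rested on that library.

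Pdzd7 (ENSMUSG00000074818, chromosome 19, 45026906 to 45046614, minus strand) encodes a PDZ scaffold that assembles the ankle link complex with whirlin. It had 1792, 3160.2, 3857 and 1234 normalized counts in wild-type libraries 1 to 4, a 3.13-fold range and the widest wild-type range of the 6 members. The knockout libraries 1 to 4 held 2823, 2645, 3324 and 2972, a 1.26-fold range, and lay between the 2 low and the 2 high wild-type libraries, apart from replicate 3, which exceeded wild-type replicate 2. The means were 2511 ± 1209 and 2941 ± 288 (SD, n = 4 each). The log2 difference was 0.36 ± 0.31 (SE), with a 95% interval of -0.32 to 1.05 and a limma adjusted p of 0.947. It was 0.07 without wild-type replicate 4 and 0.62 without wild-type replicate 3. The gene Lzts2 on the opposite strand shares 206 exonic bases with Pdzd7, 5.08% of its exons, so reads there cannot be assigned by strand. Lzts2 had 1749.7 ± 382 and 1701 ± 66.7 normalized counts (SD, n = 4 each). The annotation that gave these exons puts the upper end of Pdzd7 at 45045717, not 45046614.

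Clrn1 (ENSMUSG00000043850, chromosome 3, 58844028 to 58885340, minus strand) encodes clarin-1. Its wild-type libraries 1 to 4 gave 6403, 5492, 7738 and 5421 normalized counts and its knockout libraries 1 to 4 held 7241, 6514, 6481 and 6600.2. All knockout libraries lay above 3 of the wild-type libraries and below wild-type replicate 3. The means were 6264 ± 1080.0 and 6709 ± 358 (SD, n = 4 each). Their log2 difference was 0.11 ± 0.14 (SE), with a 95% interval of -0.20 to 0.42 and a limma adjusted p of 0.976. It was 0.22 without wild-type replicate 3, and 0.05 without wild-type replicate 2 or without wild-type replicate 4, and 0.08 without knockout replicate 1. Clrn1 and Adgrv1 had the narrowest intervals of the members. For Ush1g and Pdzd7 a change of up to 2.20-fold and 2.07-fold upward lay within the interval.

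**Figure D2:**
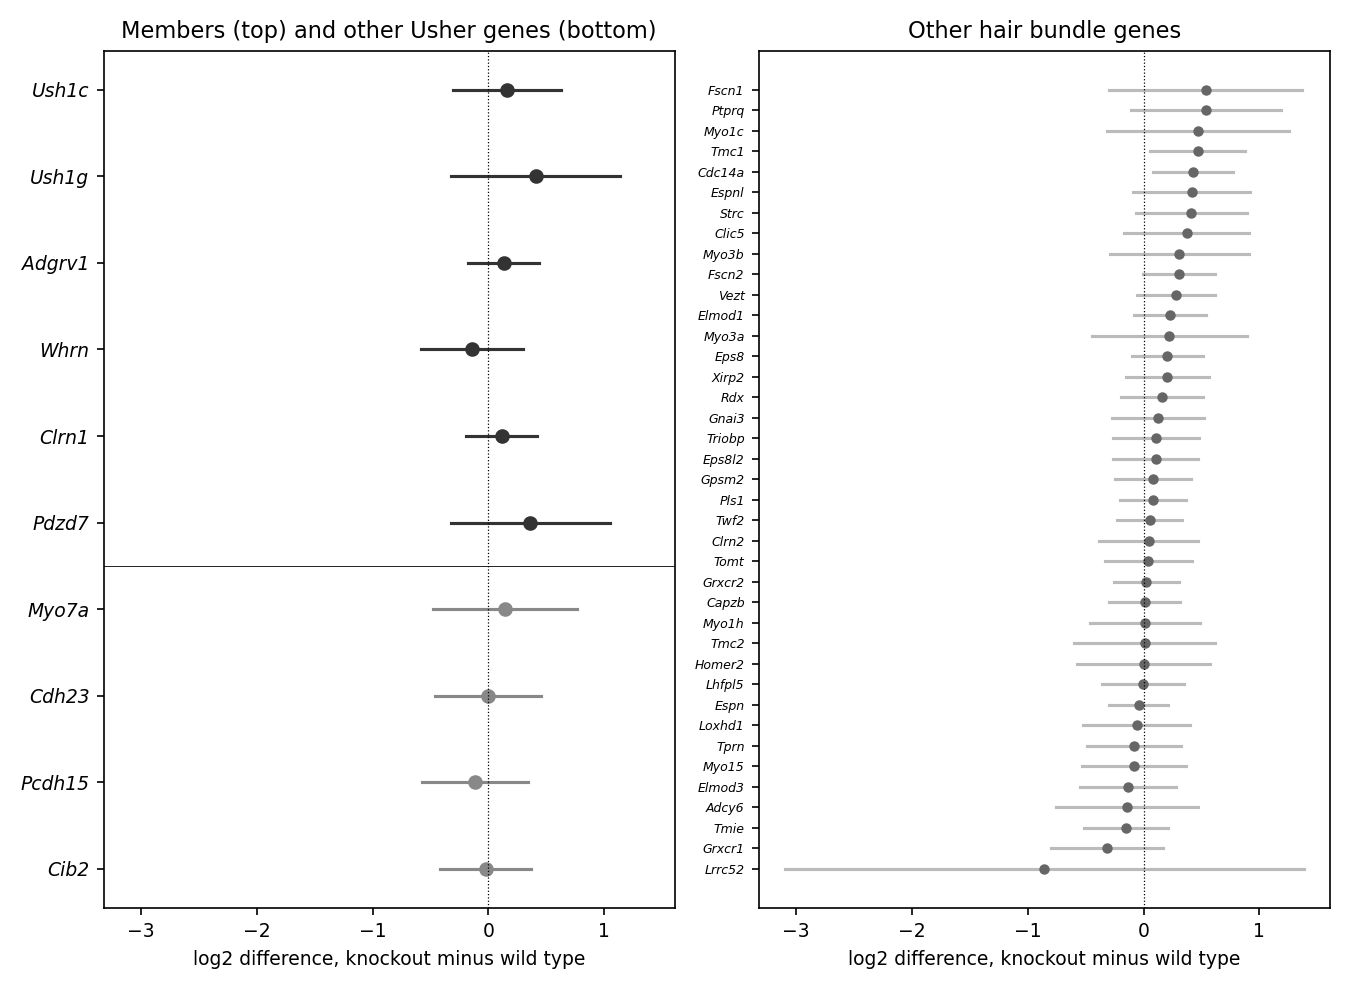
Log2 differences (horizontal axes, knockout minus wild type) with 95% intervals from limma, for the 6 members and 4 other Usher genes on the left and 39 other hair bundle genes on the right. The dotted line is 0. All intervals of the members and of the 4 other Usher genes include 0.

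Levels of different genes were compared per kilobase of merged exons (GENCODE release M21), since a long transcript gives more reads in full-length cDNA. In wild type Ush1c was highest with 1926 ± 584 normalized counts per kilobase, followed by Clrn1 with 1624 ± 280.0 (SD, n = 4 each). Pdzd7 had 619 ± 298 and Whrn 317 ± 83.4 per kilobase (SD, n = 4 each). Ush1g had 214 ± 96.5 and Adgrv1 108 ± 15.6 per kilobase (SD, n = 4 each). Adgrv1 thus came last per length although in wild type it had a higher mean normalized count than Ush1g, Whrn or Pdzd7. Its merged exons add up to 24.9 kilobases, and its longest transcript has 19.3 kilobases. How evenly the cDNA covers so long a transcript was not tested, so its level per kilobase may be understated. Among neighbours in this order only Clrn1 and Pdzd7 did not overlap between any of their wild-type libraries (1406 to 2006 against 304 to 951 per kilobase). The other 4 neighbouring pairs overlapped.

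In the knockout the order was the same, with 2082 ± 250.2 for Ush1c, 1739 ± 92.9 for Clrn1, 725 ± 71.0 for Pdzd7, 283 ± 42.9 for Whrn, 274 ± 82.3 for Ush1g and 118 ± 5.25 for Adgrv1 (normalized counts per kilobase, SD, n = 4 each). There only Whrn and Ush1g overlapped among neighbours. Dividing by the longest annotated transcript in place of merged exons gave the same order in both genotypes. The overlaps did depend on the length used. By the longest transcript Whrn and Ush1g did not overlap in wild type (436 to 774 against 122 to 348 per kilobase). Nor did they in the knockout (430 to 616 against 169 to 355 per kilobase). Against all 18195 tested genes with an annotated length, whose wild-type median was 131 normalized counts per kilobase, Ush1c lay above 93.0% and Clrn1 above 91.6%. Adgrv1 lay above 46.7%, with the same limit on its length. The annotation holds 9 transcripts of Ush1c, 17 of Whrn, 8 of Pdzd7, 14 of Adgrv1, 4 of Clrn1 and 1 of Ush1g. Gene totals do not separate the long and short isoforms of harmonin, whirlin and PDZD7.

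**Figure D3:**
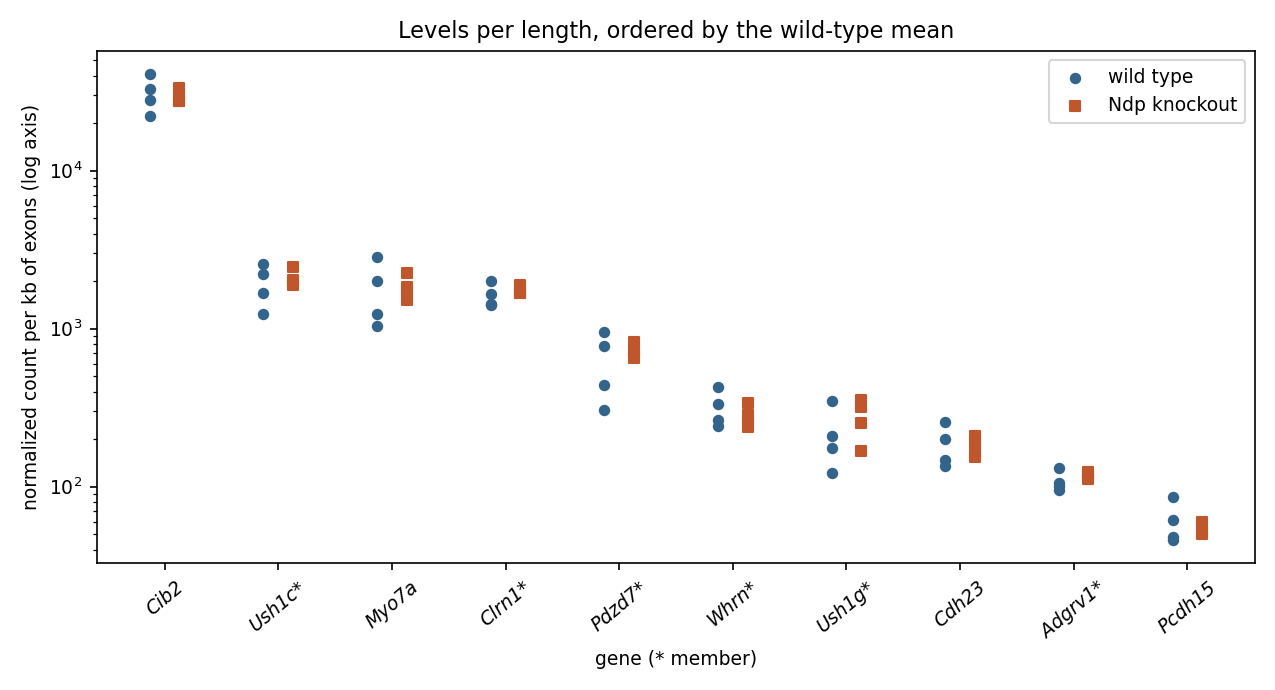
Normalized counts per kilobase of merged exons (vertical log axis) of the 6 members, marked with an asterisk, and 4 other Usher genes, ordered by their wild-type mean. Each point is a library. Among the members Ush1c and Clrn1 lie at the top, at 1239 per kilobase or more in every library, and Adgrv1 lies at the bottom.

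Wild-type replicate 3 held the highest value of 4 of the 6 members over all 8 libraries (Adgrv1, Whrn, Clrn1 and Pdzd7) and the lowest of Ush1c. Over all genes tested it held the highest value of 15.9% and the lowest of 15.1%. Wild-type replicate 4 held the highest of 21.2% and the lowest of 20.4%, and wild-type replicate 2 of 15.6% and 15.8%. Other libraries lay farther from the mean for Pdzd7 (-1.07 in wild-type replicate 4), Ush1g (-0.91 in wild-type replicate 1) and Adgrv1 (-0.24 in wild-type replicate 2), on the log2 scale. Relative to each gene's mean over 8 libraries, wild-type replicate 3 deviated by 0.60 for Ush1g, 0.58 for Pdzd7, 0.53 for Whrn, 0.26 for Clrn1, 0.22 for Adgrv1 and -0.66 for Ush1c. This library also had the highest sum of hair cell markers (477728 normalized counts) and the lowest sum of supporting cell markers (284211), and their part in the result was not tested. The mean log2 level of the hair cell markers deviated by 0.11 in it.

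**Figure D4:**
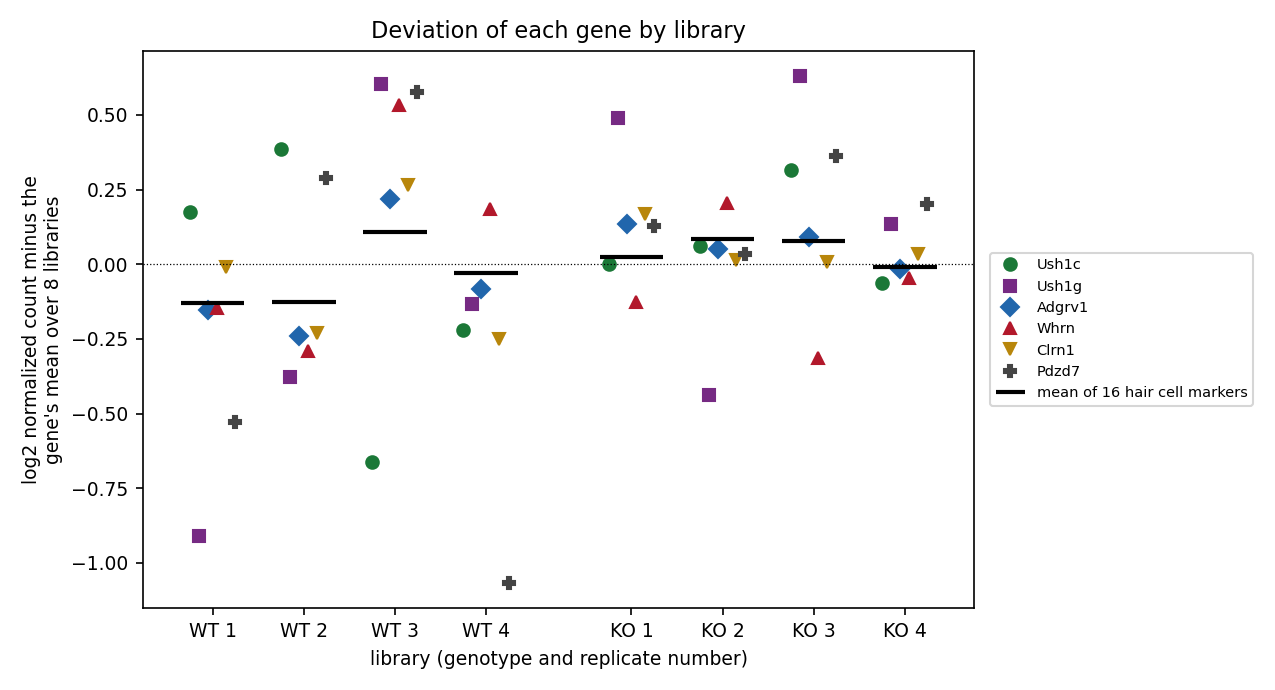
Log2 normalized count minus the gene's own mean over the 8 libraries (vertical axis) for the 6 members in each library. Black lines are the same for the mean of 16 hair cell markers. In wild-type replicate 3, 5 members lie above 0.2 and Ush1c lies at -0.66.

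The members differed in how much they varied. The SD of log2 values within a genotype, pooled over both genotypes, was 0.15 for Adgrv1 and 0.18 for Clrn1, and 6.04% and 10.7% of all tested genes had a smaller one. It was 0.56 for Ush1g and 0.54 for Pdzd7, above the median of 0.40 over all genes, with 0.30 for Whrn and 0.35 for Ush1c in between. All genes here include low ones, from the minimum of 10 normalized counts upward, and genes of a like level were not compared. All 6 members had a smaller SD in the knockout than in wild type, as did 70.5% of all genes. Adgrv1 and Clrn1 lay closest, with a root mean square difference of their centred log2 values of 0.09 over 8 libraries. This difference is small for any 2 genes that vary little, as these do, so it does not show that they vary together. Ush1c and Ush1g lay farthest apart, at 0.71, and Ush1g had the largest SD of the members. The ratio of Clrn1 to Adgrv1 normalized counts was 2.33 ± 0.20 over the wild-type libraries and 2.29 ± 0.10 over the knockout libraries (SD, n = 4 each). Of the 15 ratios between 2 members, 0 separated the genotypes. The share of tested genes whose ratio to a member did not overlap between genotypes was 1.55% for Ush1c, 1.62% for Ush1g, 3.32% for Adgrv1, 1.58% for Whrn, 2.94% for Clrn1 and 1.65% for Pdzd7.

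A date in the titles was shared by wild-type replicate 2 and knockout replicate 2 only. In that pair, which allows no test, the log2 difference was -0.33 for Ush1c, -0.06 for Ush1g, 0.29 for Adgrv1, 0.50 for Whrn, 0.25 for Clrn1 and -0.26 for Pdzd7. In the other 6 libraries it was 0.32, 0.56, 0.08, -0.35, 0.07 and 0.57 in the same order of genes. The signs of Ush1c, Ush1g, Whrn and Pdzd7 were thus opposite between the pair and the rest, while those of Adgrv1 and Clrn1 were alike.

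The 4 other Usher genes examined bind or bridge the members. Limma called 0 of the 4 and listed 0 at an unadjusted p under 0.05, as did edgeR and DESeq2. The counts of each tool over all genes are those given for the members. The log2 difference was negative for 3 and positive for Myo7a, with a median of -0.01, against 0.02 over all genes tested. Myo7a, the motor that carries the harmonin and SANS scaffold, had a wild-type mean of 15219.5 ± 7000.4 normalized counts and a knockout mean of 15672 ± 2595 (SD, n = 4 each). Its wild-type replicates 3 and 4 were the highest and lowest of all libraries, at 24245 and 8875, as they were for Pdzd7. The tip link cadherin gene Cdh23 had 3131 ± 937 and 3045 ± 429 and Pcdh15 had 1435 ± 445 and 1282 ± 107 (SD, n = 4 each). Cib2, which encodes a calcium-binding partner of the mechanotransduction channel, was far more abundant per length than any member, with 31007 ± 7851 and 29855 ± 2963 normalized counts per kilobase (SD, n = 4 each). Sh2d7 on the opposite strand shares 227 exonic bases with Cib2, 15.8% of its exons, so reads there cannot be assigned by strand. The means of Sh2d7 were low, at 7.52 ± 4.43 and 25.2 ± 22.6 normalized counts (SD, n = 4 each).

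Within a library the ratio of 2 genes does not depend on the scaling between libraries. The ratio of Whrn to Adgrv1, the ankle link scaffold and its receptor, was 0.776, 0.747, 0.964 and 0.931 in wild-type libraries 1 to 4 and 0.646, 0.861, 0.584 and 0.757 in knockout libraries 1 to 4. The ranges overlapped, and the means were 0.855 ± 0.11 and 0.712 ± 0.12 (SD, n = 4 each). The ratio of the scaffolds Pdzd7 to Whrn was 1.11 ± 0.54 in wild-type libraries and 1.45 ± 0.35 in knockout libraries (SD, n = 4 each), and that of Ush1g to Ush1c was 0.113 ± 0.09 and 0.113 ± 0.03 (SD, n = 4 each). For Ush1g over Ush1c wild-type replicate 3 was the highest of all libraries at 0.241, and wild-type replicate 1 the lowest at 0.0472. Of 24 ratios between a member and another of the 4 Usher genes, 0 separated the genotypes. The ratios were added after the values were seen and are a description with no test.

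**Figure D5:**
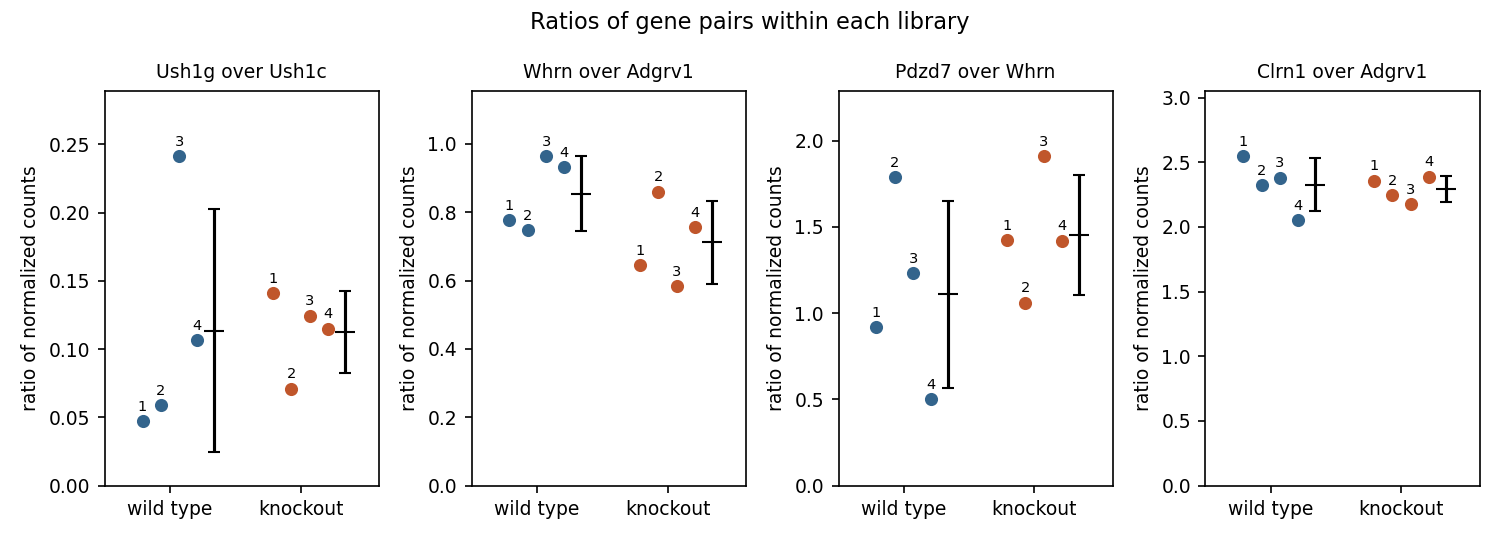
Ratios of normalized counts of 2 members within each library (vertical axes from 0). Points are libraries with their replicate number, and bars are the mean ± SD of 4 libraries. The genotypes overlap in all 4 panels, and the ratio of Clrn1 to Adgrv1 varies least, between 2.05 and 2.55.

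Other genes of the hair bundle were compared from a list of 42 symbols, of which 39 were tested. Limma and edgeR called 0 and listed 2 at an unadjusted p under 0.05, and DESeq2 called 0 and listed 3. Of the 39, 29 had a positive log2 difference and 10 a negative one, with a median of 0.08. Over all genes tested 52.5% were positive. The share listed at an unadjusted p under 0.05 by limma was 5.57% over all genes, so the 2 of 39 lay near it. Over all genes edgeR called 0 and listed 828 of 18203, and DESeq2 called 34 and listed 1526 of 25078. Scaling by the hair cell markers lowered the log2 difference of every gene by the same 0.09, which put the median of the list at -0.0054 and that of all genes at -0.07. Cdc14a, which encodes a phosphatase of hair cells, was the 1 gene of the list whose genotypes did not overlap, where 3.04% of all genes did not, with 2744 ± 414 and 3670.2 ± 421 normalized counts (SD, n = 4 each) and a limma adjusted p of 0.895. Fscn2, an actin crosslinker gene of stereocilia, had 6157 ± 714 and 7599 ± 949 normalized counts, and Strc, the gene of stereocilin, which links the tops of outer hair cell stereocilia, had 6261 ± 1551 and 8351 ± 2114 (SD, n = 4 each). The channel gene Tmc1 had a log2 difference of 0.47 ± 0.19 (SE). The most abundant genes of the list were Lhfpl5, whose product joins the tip link to the channel, with 25974 ± 5374 and 25493 ± 1841, and Espnl, a relative of the actin bundler espin, with 15783 ± 5399.7 and 20227 ± 2779 normalized counts (SD, n = 4 each). Triobp, a gene of the stereocilia rootlets, had 17055 ± 3743 and 18028 ± 1733, and Eps8l2, a gene of an actin regulator, had 14554 ± 3356 and 15324 ± 910.3 (SD, n = 4 each).

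Harmonin has a second scaffold complex in the microvilli of the gut, and the genes of that complex and the paralogs of members were looked for. Of 6 symbols 2 were found among the genes with deposited values, and the other 4, Cdhr2, Cdhr5, Anks4b and Clrn3, were not found there. Myo7b, the gut paralog of Myo7a, was low, with 31.5 ± 21.2 and 24.4 ± 29.8 normalized counts (SD, n = 4 each) and 0 reads in wild-type replicate 1 and knockout replicate 3. Calml4, a calmodulin-like light chain gene, was abundant, with 22691 ± 8045 and 21963 ± 2108 normalized counts (SD, n = 4 each). Neither passed limma, with adjusted p of 0.990 and 0.998.

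The genes closest to each member over the 8 libraries were named by the smallest root mean square difference of centred log2 values. All tested genes other than the members were searched, and the difference also depends on how much a gene varies. They were Chst8 (0.04), G6pdx (0.08) and Cyp2j6 (0.09) for Ush1c, and Rreb1 (0.16), Dgkh (0.18) and Gm6871 (0.20) for Ush1g. For Adgrv1 they were Nup214 (0.05), Prcc (0.05) and Lrrfip1 (0.07), and for Whrn Gpr4 (0.09), Evl (0.11) and Mmab (0.11). Reep3 (0.06) and Barhl1 (0.06), a hair cell transcription factor gene, were among the closest to Clrn1. For Pdzd7 they were Trp53bp1 (0.07), Ppp2r5e (0.10) and Mtmr3 (0.11). With 1 library left out or a pseudocount of 5, 1 to 3 of the 3 genes were kept for Ush1c, 0 to 2 for Whrn and 0 to 3 for Ush1g, Adgrv1 and Pdzd7.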

How the data were processed

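RNA of sorted cochlear hair cells was measured in 4 wild-type and 4 Ndp knockout libraries. Per the labels' protocols, SMART-Seq v4 gave full-length cDNA and Nextera XT the libraries. Nextera XT keeps no strand information. Salmon 0.14.2, DESeq2 1.26.0, bcl2fastq 2.20 and the build mm10 are listed, without roles, in the submitters' processing notes. The signal columns deposited by the authors hold normalized counts. From the values, each library's gene counts had been divided by a constant of that library. Dividing by the step of each column gave whole reads for 100% of 202744 values, within a relative 1e-06. Salmon estimates counts, so these whole numbers may be rounded estimates, and they are called recovered reads in that sense. The authors deposited log2 fold changes and p-values too, per the file headers.

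The main test was limma 3.58.1 (R 4.3.3, trend, two-sided) on log2(normalized count + 1), which understates changes of low genes, over 18203 genes with at least 10 normalized counts in at least 4 libraries, with Benjamini-Hochberg adjustment over all of them and a threshold of 0.05. edgeR 4.0.16 and DESeq2 1.42.0 ran on the recovered reads. edgeR called 0 of 18203 genes and DESeq2 34 of 25078. SDs are of normalized counts, and SEs and 95% intervals are of the log2 difference. Floors cover counting error only. Groups came from the genotype labels, and replicate numbers follow accession order. Levels per length used GENCODE release M21, in which 24587 of 25343 genes have the table's coordinates. Pdzd7 does not, with an upper end at 45045717 there and at 45046614 as deposited. Its exon length, number of transcripts and share of overlap with Lzts2 may therefore differ from those of the model counted.

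Members and lists were chosen with earlier results of these data known. Named genes were the members, Ndp, the genes of the Usher and microvillus lists, the 4 bundle genes with the smallest p and the 4 most abundant, 3 most alike genes per member, and the most abundant marker genes. Gm9860, Lzts2, Sh2d7 and the ratios were added after the values were seen. Some results under this rule are not reported here.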

Additional observations from a re-analysis of the deposited data

Results flagged for a closer look

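In groups of 4 libraries, a value was singled out when its gap to the nearest other library was too large a part of the group's range by Dixon's test at the 95% level. Of 22 groups (11 genes in 2 genotypes) 1 had such a value, where chance gives about 1 in 20. Knockout replicate 1 held 7241 normalized counts of Clrn1, while the other 3 knockout libraries held 6481 to 6600.2.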

How the results depend on the processing

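Over 17 alternative settings per member, 102 values in all, 0 were called, with a lowest adjusted p of 0.625, and 2 changed sign. The log2 differences ranged from -0.04 to 0.32 for Ush1c, 0.17 to 0.68 for Ush1g, 0.04 to 0.22 for Adgrv1, -0.35 to 0.02 for Whrn, 0.02 to 0.22 for Clrn1 and 0.07 to 0.62 for Pdzd7. The sign changes came without wild-type replicate 3 (Ush1c, -0.036, and Whrn, 0.015). With 1 library left out in turn the range was -0.036 to 0.314 for Ush1c and -0.260 to 0.015 for Whrn. The number of genes called over the whole table was 1 in the main setting, 0 with a pseudocount of 0.1, with at least 50 normalized counts in 4 libraries, with edgeR or without both libraries of the shared title date, and 34 with DESeq2, and 0 to 2 with 1 library left out. At an unadjusted p under 0.05 these settings listed 977, 745, 828, 1587 and 1526 genes, and the cause was not tested. Other genes changed sign with 1 library left out, where the range was -0.079 to 0.40 for Myo7a, -0.14 to 0.17 for Cdh23, -0.23 to 0.070 for Pcdh15, -0.17 to 0.12 for Cib2, -2.06 to 0.41 for Myo7b, -0.16 to 0.23 for Calml4, -0.15 to 0.10 for Lhfpl5, -0.036 to 0.20 for Triobp and -0.033 to 0.20 for Eps8l2. Calml4 was also -0.078 with scaling by hair cell markers, -0.054 with edgeR, -0.047 with DESeq2 and -0.20 without both libraries of the shared date, and Myo7b was then 0.051. Myo7b was not tested at the minimum of 50. No paired analysis was possible because the labels give no replicate numbers shared between the genotypes.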
